A study of Homo sapiens with 6 samples.

Results

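The comparison concerns where SON, a large protein of nuclear speckles, was found on chromatin of IMR90 cells left untreated and after 3 days of the treatment labelled ICM. Its members are the peaks of both deposited SON lists on chromosomes 1 to 22 and X, 22216 in untreated cells and 11028 after 3 days, which make up 33244 of the 44717 peaks in all 4 lists of the series. IMR90 is a human fibroblast line established from embryonic lung, and SON was mapped by ChIPmentation, in which a transposase tags antibody-bound chromatin while it sits on the beads. Both groups were fixed with 1% formaldehyde for 10 min, and the labels do not expand the abbreviation ICM. Each group is 1 list that joins 2 replicates, with no statement of whether these were separate cultures, so there is no test between conditions and no value below measures the amount of SON on chromatin.

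Nuclear speckles are bodies between the chromosomes that store and modify splicing factors, and SON is a scaffold protein at their core. Genes that lie against speckles tend to be gene-dense, GC-rich and highly transcribed, and SON itself helps splicing of transcripts with weak splice sites, many of them from cell cycle genes. A peak of a speckle protein in crosslinked chromatin can reflect direct or indirect contact.

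Each peak was assigned to every protein-coding gene whose body, with 5 kb added on each side, it touched. A gene's strength was the highest −log10 p among its peaks in a list, and this value is the lower of the 2 replicate values the list gives. Of 19974 protein-coding genes, 11401 (57.1%) had an untreated peak and 8187 (41.0%) had a peak at 3 days. A gene with peaks in both lists was ranked in each list as a percentile from 0 to 100 among the 8004 such genes. It "gained" or "dropped" rank when its percentile moved by at least 20 points and both replicate percentiles of one list lay on the same side of both of the other. All remaining genes of the 8004 "held" rank. Ranks compare genes within a list, so a gain says that a gene stood higher among genes at 3 days than in untreated cells, not that it carried more SON.

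The promoters of 7 genes are shown first, because the results on promoter letters turn on them and because their genes moved far in rank. These genes were chosen after their values were seen. Each sequence runs 5′ to 3′ on the gene's strand, from 250 bases before to 50 bases after the start, and comes from RefSeq with the coordinates of GRCh38.p14. In DHX9 (an RNA helicase, chr1:182839097-182839396, plus strand), LSM7 (a ring protein of the U6 snRNP, chr19:2328537-2328836, minus strand) and SPOP (a ubiquitin ligase adaptor, chr17:49678114-49678413, minus strand) the capitals mark GCGCATGCG or its reverse complement, the letters recognised by the transcription factor NRF1. LSM7 holds these letters 3 times, 2 of the matches overlapping.
DHX9: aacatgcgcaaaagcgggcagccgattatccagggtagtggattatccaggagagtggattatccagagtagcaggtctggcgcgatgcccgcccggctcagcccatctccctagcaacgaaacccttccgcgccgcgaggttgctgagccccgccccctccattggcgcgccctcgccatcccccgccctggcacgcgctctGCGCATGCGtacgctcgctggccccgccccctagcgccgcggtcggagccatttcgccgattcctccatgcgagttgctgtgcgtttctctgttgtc
LSM7: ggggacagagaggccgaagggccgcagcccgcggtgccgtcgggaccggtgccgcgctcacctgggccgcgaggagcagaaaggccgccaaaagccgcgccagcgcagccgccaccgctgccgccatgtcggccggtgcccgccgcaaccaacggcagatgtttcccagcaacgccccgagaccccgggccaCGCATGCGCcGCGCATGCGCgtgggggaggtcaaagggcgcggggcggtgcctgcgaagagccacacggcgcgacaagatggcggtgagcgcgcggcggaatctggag
SPOP: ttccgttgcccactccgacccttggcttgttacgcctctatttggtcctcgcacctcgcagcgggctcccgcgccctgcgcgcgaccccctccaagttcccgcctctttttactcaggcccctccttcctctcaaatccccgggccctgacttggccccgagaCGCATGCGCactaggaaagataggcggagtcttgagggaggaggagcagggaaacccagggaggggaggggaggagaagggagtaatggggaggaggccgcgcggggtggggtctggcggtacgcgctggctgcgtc
In RPS6 (a ribosomal protein of the small subunit, chr9:19380187-19380486, minus strand) and IREB2 (iron regulatory protein, chr15:78437966-78438265, plus strand) the capitals mark TCTCGCGAG or its reverse complement, the letters bound by BANP. RPS6 holds 2 overlapping matches.
RPS6: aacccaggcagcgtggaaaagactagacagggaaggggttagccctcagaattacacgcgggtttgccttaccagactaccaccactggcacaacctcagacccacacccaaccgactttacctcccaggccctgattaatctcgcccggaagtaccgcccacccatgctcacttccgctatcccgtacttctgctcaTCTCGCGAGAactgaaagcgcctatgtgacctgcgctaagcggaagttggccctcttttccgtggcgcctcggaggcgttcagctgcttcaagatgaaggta
IREB2: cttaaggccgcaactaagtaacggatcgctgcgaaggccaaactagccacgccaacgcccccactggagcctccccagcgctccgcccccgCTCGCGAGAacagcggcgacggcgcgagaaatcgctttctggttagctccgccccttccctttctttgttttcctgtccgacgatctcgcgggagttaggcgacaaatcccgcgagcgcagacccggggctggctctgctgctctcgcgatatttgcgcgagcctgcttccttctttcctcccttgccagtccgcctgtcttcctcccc
H2BC11 (a replication-dependent histone H2B gene, chr6:27132746-27133045, minus strand) has CCAAT, recognised by NF-Y, and the core promoter letters TATAAA in capitals on either strand, with 4 matches of each. EEF1A1 (the translation elongation factor that delivers tRNAs, chr6:73520983-73521282, minus strand) has 1 GC box, GGGCGG, in capitals.
H2BC11: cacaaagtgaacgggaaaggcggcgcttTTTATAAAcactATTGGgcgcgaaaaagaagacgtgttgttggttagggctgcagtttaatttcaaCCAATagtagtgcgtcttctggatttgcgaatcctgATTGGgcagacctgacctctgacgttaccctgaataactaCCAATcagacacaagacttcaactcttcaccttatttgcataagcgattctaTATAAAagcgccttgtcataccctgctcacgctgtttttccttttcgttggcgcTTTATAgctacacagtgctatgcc
EEF1A1: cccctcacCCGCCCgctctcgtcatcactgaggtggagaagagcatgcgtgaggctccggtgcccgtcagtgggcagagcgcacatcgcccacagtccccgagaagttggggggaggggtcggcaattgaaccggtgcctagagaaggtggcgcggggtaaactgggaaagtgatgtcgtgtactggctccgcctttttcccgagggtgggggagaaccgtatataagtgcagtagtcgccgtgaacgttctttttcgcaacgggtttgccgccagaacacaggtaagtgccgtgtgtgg
The strongest peak of each of these genes covered all 300 bases in both lists, except SPOP at 3 days, where 284 bases were covered. A match describes letters only and is neither a measured binding site nor a cause.

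Of the 11401 genes with an untreated peak, 8004 (70.2%) also had one at 3 days and 3397 (29.8%) did not. Among the 8573 genes with no untreated peak, 183 (2.13%) had one at 3 days. Of the 8004 genes with peaks in both lists, 5626 (70.3%) held rank, 1219 (15.2%) gained and 1159 (14.5%) dropped. Neighbouring genes can share a peak, and the 8004 genes had 6286 different strongest peaks in untreated cells and 6214 at 3 days. The percentiles of the 8004 genes had a Spearman rho of 0.692 between the lists, which is a description across genes that share libraries. The median absolute shift was 12.6 points, and the middle 90% of shifts ran from −37.6 to 39.5 points. At the limit of the rule, genes just inside had shifts of 20.002 and −20.03 points, and genes just outside 19.95 and −19.97. A further 227 genes moved by at least 20 points but had overlapping replicate ranks and so count as held. PPM1D, a p53-induced phosphatase, is one: it moved from 42.5 to 6.83, a shift of −76.9 points, while its 3-day replicate values were 6.83 and 97.5.

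**Figure D1:**
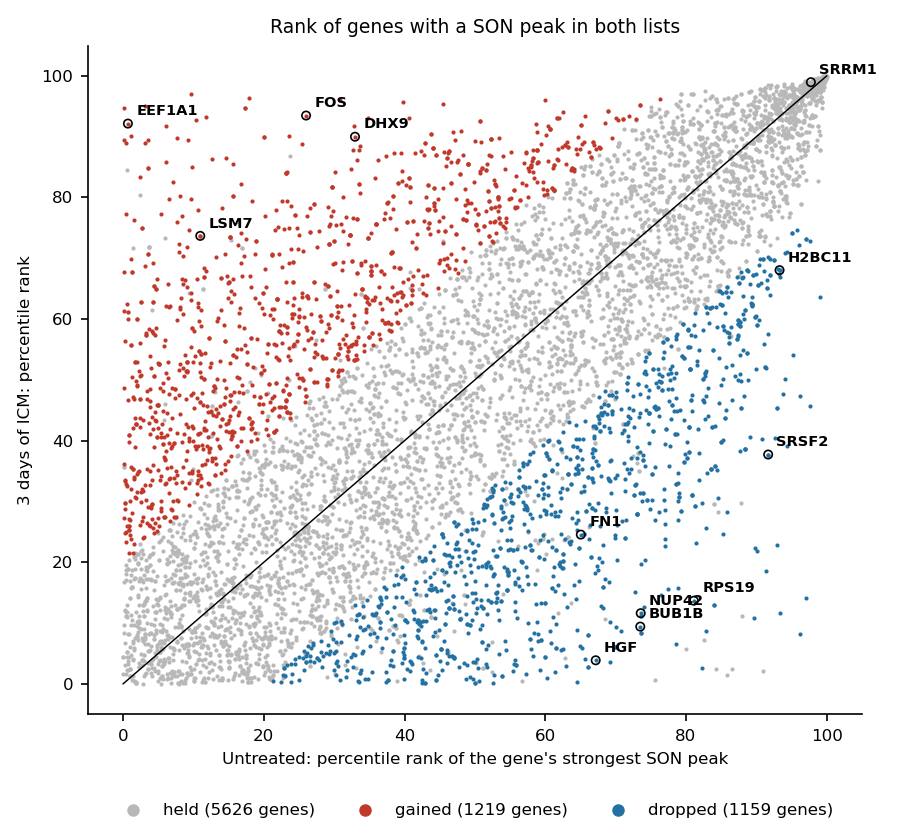
Percentile of each of the 8004 genes with a peak in both lists, untreated on the horizontal axis and 3 days on the vertical axis, coloured by whether the gene held (grey), gained (red) or dropped (blue) rank. The 12 labelled genes show the range, from FOS and LSM7 above the diagonal to RPS19, BUB1B and HGF below it.

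The replicates were not equally close in the lists. In untreated cells both replicate values were identical for 74.5% of the 8004 genes, and the median difference in rank between replicates was 1.78 points. At 3 days the values were identical for 22.3% of genes and the median difference was 10.2 points, with replicate 2 the higher (median −log10 p 15.8 against 11.6 in replicate 1). A replicate difference of 20 points or more occurred in 2.75% of genes in untreated cells and in 16.9% at 3 days. The share of genes whose strongest peak had a global IDR (irreproducible discovery rate) of at most 0.05 was 78.2% in the untreated list and 58.2% at 3 days. The number of reads behind each list is unknown, and its part in the loss of peaks was not tested.

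Strength in untreated cells went with whether a gene kept its peak. From the weakest to the strongest quintile of untreated genes, 28.6%, 51.5%, 78.6%, 92.7% and 99.6% had a peak at 3 days. None of the 1441 genes with an untreated value above 34.9 lost it. Of the 3810 genes above 20, 92 (2.41%) had no peak at 3 days. The strongest of these was at the shared start of MORC2, a chromatin-compacting ATPase, and TUG1, a long noncoding RNA gene, at 34.9 in both replicates. Other strong untreated peaks without a 3-day peak lay at RRS1, a ribosome assembly factor (31.96), CASS4, an adhesion adaptor (31.1), GALNT7, a glycosyltransferase (29.8), FCGRT, the neonatal Fc receptor (28.4), and ZNF165 (28.2). Of the 3397 genes that lost their peak, 1723 (50.7%) had an untreated IDR of at most 0.05.

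Peaks seen only at 3 days were weak. The 183 genes with a 3-day peak alone reached at most 20.1, at CCNQ, a cyclin that activates CDK10, where the replicates gave 20.1 and 62.8. Only 22 of them had an IDR of at most 0.05. Next came PEX6, a peroxisome assembly ATPase (16.9), APOC2, an apolipoprotein (13.3), LBP, which binds lipopolysaccharide (13.1), CASQ2, a calcium store protein of heart muscle (12.9), and ZNF746 (12.5). LBP, APOC2 and CASQ2 are best known from liver and heart rather than fibroblasts.

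**Figure D2:**
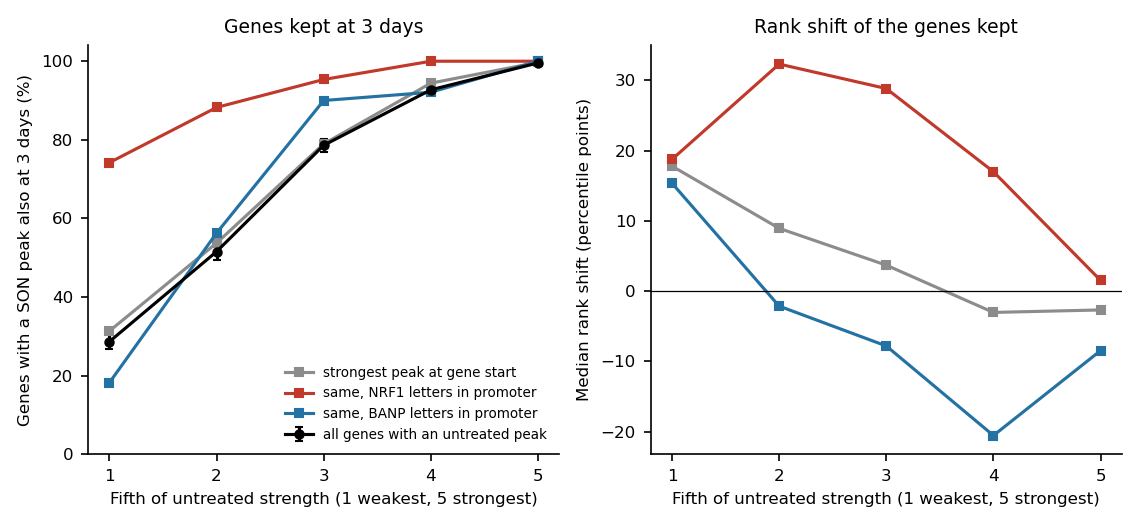
Left, percentage of genes with an untreated peak that also had a 3-day peak, by quintile of untreated strength (weakest to strongest), for all genes with exact 95% intervals, for genes whose strongest peak lies at the gene start, and for those with the NRF1 or the BANP letters. Right, median rank shift in percentile points of the groups with a peak at the gene start, with all genes not drawn. NRF1 genes lie above the others in the 4 weaker quintiles on the left, where all groups end near or at 100%. On the right they do so in every quintile.

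Gene starts kept their peaks more often than other places. Among untreated peaks, 67.0% of the 5831 at gene starts met a 3-day peak (exact 95% interval 65.7% to 68.2%). The share was 42.7% of 347 peaks at 3′ ends, 38.1% of 9067 within gene bodies and 37.0% of 6971 outside genes. In the weakest quintile of peaks these shares were 26.3%, 7.35%, 11.7% and 13.3%, and in the strongest quintile 96.4%, 88.9%, 88.8% and 87.8%. Starts stood above the other places in both of these quintiles, and peaks at starts rose from 26.2% of the untreated list to 36.4% of the 3-day list. All intervals here are exact (Clopper-Pearson), and they cover counting error only.

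Genes that gained or dropped also differed in features the ranking did not use. A peak at 6 days of ICM was present at 54.2% of held genes, 42.2% of gained and 42.0% of dropped genes, at 5.62% of genes that had lost their peak by 3 days and at 12.02% of genes with a 3-day peak alone. HMGB2, a chromatin protein of the high mobility group mapped in untreated cells of the same line, had a peak at 46.2% of held, 35.5% of gained and 44.3% of dropped genes, and at 22.96% of genes that lost their SON peak. Among genes with a promoter in the RefSeq table, the strongest untreated peak lay at the gene start in 64.7% of gained and 57.4% of dropped genes. Dropped genes were longer, with a median of 38.8 kb against 30.3 kb for gained genes. The median promoter GC content was 65.3% for gained and 63.0% for dropped genes.

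Peak width went with the direction too. The strongest untreated peak of gained genes had a median width of 583 bp, against 538 bp for held and 497 bp for dropped genes, and at 3 days the medians were 598, 511 and 438 bp. Peaks of 800 bp or wider in untreated cells marked 18.2% of gained and 5.35% of dropped genes. The part of width in the shifts was not tested, so widths are given below where a result rests on wide peaks.

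The strongest genes that held rank are given by rule, so their small shifts are no finding, and ranks near the top have little room to move. FAF2, an adaptor of membrane protein degradation, had 672.8 in untreated cells (replicates 809 and 672.8) and 464 at 3 days in both replicates, the highest mean percentile of all. DEAF1, a transcription factor, followed with TMEM80 at the same peak (630 and 397), and CDC27, a core subunit of the anaphase-promoting complex, shared a peak with MYL4. The same peak served CCDC106 and U2AF2, whose product recognises the polypyrimidine tract before the 3′ splice site (540 and 326). ADI1, an enzyme of methionine salvage, went from 277 to 376, and CHKB, choline kinase beta, with CPT1B from 439 to 280. ERCC4, a DNA repair nuclease, and PHF12, a chromatin reader sharing its peak with SEZ6, completed the group of 8. The untreated value was the larger in 6 of these 8 entries and the 3-day value in PHF12 and ADI1, while all 8 shifts were within 1 percentile point.

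The largest gains lay at promoters with wide peaks. PPP2R1A, the scaffold subunit of phosphatase PP2A, had 4.64 in both untreated replicates and 50.4 and 92.7 at 3 days, a shift of 94.7 points. EEF1A1, whose promoter is printed above, had 5.54 in both untreated replicates against 39.9 and 76.5, a shift of 91.5 points. WDR13 gained 91.9 points, DESI1 89.5, USP21 89.0, HSDL2 88.4, IFNAR1, a type I interferon receptor chain, 87.3 and YWHAG, a 14-3-3 protein, 85.9. XRCC6, the Ku70 end-joining protein, shares the 3-day peak of DESI1, and its own shift was 42.4 points. UFC1 shares that of USP21 (66.5 points) and the RNA-binding protein gene PTBP3 that of HSDL2 (85.8 points). The untreated peaks of the 8 genes with the largest gains were between 807 and 1272 bp wide. A low −log10 p thus stood beside a broad peak, and for 7 of the 8 the untreated IDR was above 0.05. In DESI1 the untreated replicates differed (4.29 and 28.5), and likewise in HSDL2 (5.26 and 25.7). Without replicate 1 the shift was 16.4 points in DESI1, 16.2 in HSDL2 and 44.8 in USP21. Values given as without a replicate pick each gene's strongest peak anew. At the reported peaks USP21 moved by 86.9 points with replicate 2 alone.

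Among genes whose peaks were under 800 bp in both lists, a setting chosen after the data were seen, the largest gain was at CAMSAP1, which stabilises microtubule minus ends. Its values were 6.60 in both untreated replicates and 24.2 and 45.0 at 3 days, a shift of 81.0 points with peaks of 668 and 650 bp. CCDC93 (72.1 points), a subunit of the endosomal CCC complex, KIAA0586, a ciliogenesis gene (71.8), ZNF766 (69.8) and CC2D1A (68.6) followed. BRME1 shares the 3-day peak of CC2D1A, and its own shift was 56.8 points. After these stood ATG16L2, an autophagy gene (67.2), and NGLY1, which strips sugars from misfolded proteins, with OXSM (67.2). The histone pair H2AC18 and H3C14 of chromosome 1 (66.4) completed the group. The strongest KIAA0586 peak lay at a different place in each list.

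The largest drop was at EIF2B4, a subunit of the eIF2B exchange factor. This gene had 71.7 in both untreated replicates and 6.47 and 23.5 at 3 days, a shift of −88.0 points, which was −32.9 without replicate 1. Its untreated peak lies at a start shared with SNX17, an endosomal sorting protein, whose own shift was −49.0 points. KBTBD7, a ubiquitin ligase adaptor, had 55.9 in both untreated replicates and 6.89 in both at 3 days (−81.6 points), with peaks of 557 and 578 bp, and its replicates did not differ in either list. ZNF140 (−83.1), TIMM22, the inner membrane carrier translocase (−79.7), and USP22, the SAGA deubiquitinase (−78.8), also dropped. TIMM22 and USP22 had 3-day replicates far apart, 5.55 and 29.96 in TIMM22 and 6.79 and 67.97 in USP22, and without replicate 1 their shifts were −10.3 and −2.49 points. LRRC49 (−74.2), NDEL1, a dynein regulator (−72.8), and P2RY11, a purine receptor (−72.0), had their strongest peak at a different place in each list, so their shift compares peaks and not one site. Without replicate 2, where the strongest peak was picked anew by replicate 1, the shift of LRRC49 was −25.8 points and that of NDEL1 6.41, a reversal. At the reported peaks the shifts with replicate 1 alone were −25.7 in LRRC49 and −59.6 in NDEL1. With peaks under 800 bp, CEBPE, a myeloid transcription factor (−65.7), the pair ZNF155 and ZNF230 (−65.1) and FZD2, a Wnt receptor (−64.2), joined the 8 largest drops. Without replicate 1 the shift of the ZNF155 pair was −14.7 points.

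**Figure D3:**
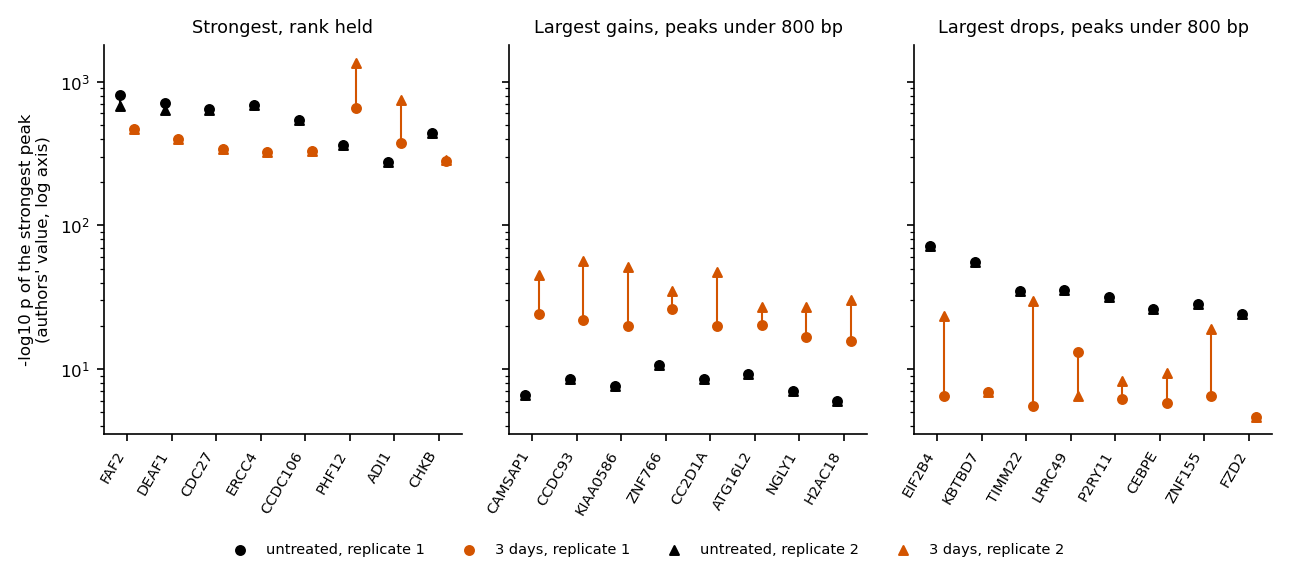
Replicate −log10 p (log axis) of the 8 strongest held genes, the 8 largest gains and the 8 largest drops among genes with peaks under 800 bp; circles are replicate 1, triangles replicate 2, black untreated and orange 3 days. Untreated and 3-day values do not overlap in any of the gains and drops shown. The rule required this of their replicate percentiles, so the separation is no finding.

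Gene classes were then compared by the share of genes that kept a peak and by their median shift. Of 40 classes, 28 kept a larger share than the 70.2% of all genes and 12 a smaller one. The exact interval of the share lay wholly above 70.2% in 8 classes and wholly below it in 4. These intervals treat genes as separate, though genes of a class can share a peak. The low classes include protocadherins, with 5 different strongest untreated peaks for 26 genes, and HOX clusters, with 4 for 9. Of the 38 classes with at least 3 genes in both lists, the median shift was positive in 11 and negative in 27, while the limits of the rule were symmetrical. The median shift of all genes was −0.20 points and ran from −8.67 to 0.26 over 10 alternatives. Positive and negative medians below are counted against 0. Counts per class are read beside the backgrounds of 15.2% gained and 14.5% dropped. These backgrounds varied with starting rank. From the weakest to the strongest quintile of untreated rank, 33.4%, 24.25%, 14.3%, 4.18% and 0% of genes gained. The shares that dropped were 0%, 8.81%, 24.2%, 24.5% and 14.8%. Classes differed in untreated strength, and the comparisons with all genes are not matched for it. With the values of 1 replicate alone, ranked at the same peaks, the shift shrank by more than 1.5 times in 323 of the 1219 gains (26.5%) and 336 of the 1159 drops (29.0%). Where a gene named below is one of these, its smaller shift is given.

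**Figure D4:**
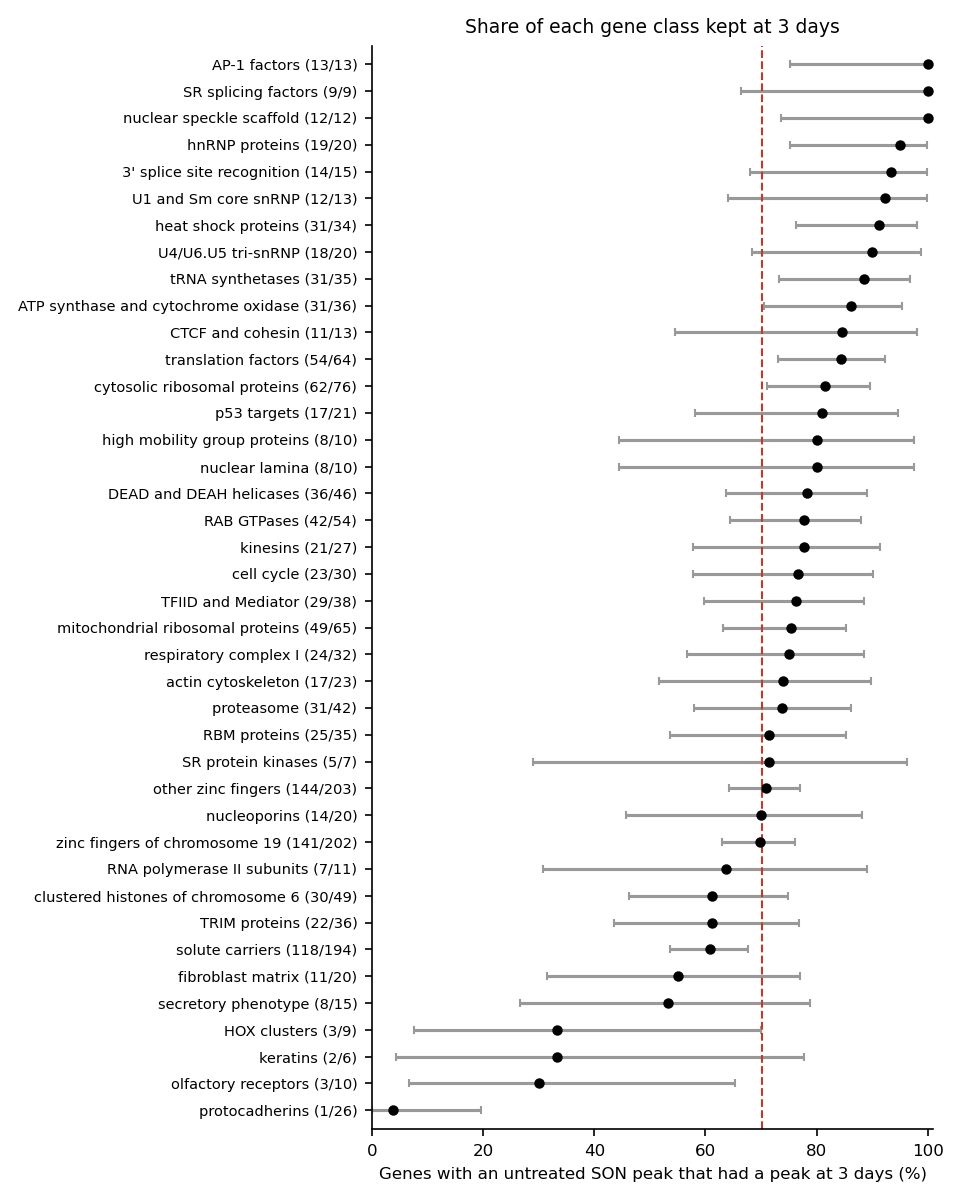
Percentage of genes with an untreated peak that also had a 3-day peak in each of the 40 gene classes, with exact 95% intervals; the dashed line is the 70.2% of all genes. Splicing classes and AP-1 factors lie to the right, protocadherins, HOX clusters and solute carriers to the left.

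Most splicing genes kept their peaks. The 7 splicing classes hold 96 genes with an untreated peak, each with a peak of its own, and 89 (92.7%, 85.6% to 97.0%) kept it. Many were strong in untreated cells: the 2 strongest quintiles held 10 of 12 speckle scaffold and 17 of 20 hnRNP genes, but 3 of 7 SR protein kinases. In those quintiles every gene of the 7 classes kept a peak, as did 96.1% of all genes. The part of strength in the class share was not tested. Of the 89, 9 gained (10.1%) and 11 dropped (12.4%), both shares below those of all genes without a match for starting rank. The median shift was −0.37 points. All 12 genes of the speckle scaffold class kept a peak and held rank. SRRM1, a speckle coactivator of splicing, had 93.1 in both untreated replicates and 139 and 314 at 3 days, staying near the top with a shift of 1.21 points. LUC7L2, a U1 snRNP accessory protein, had 90.7 and then 92.3 and 239.

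Among factors that recognise the 3′ splice site, drops outnumbered gains. Of 15 genes 14 kept a peak, none gained and 4 dropped, with a median shift of −3.90 points that was negative under 8 of 10 alternatives. SF3B6, which sits at the branch point, had 36.4 in both untreated replicates and 9.46 in both at 3 days (−48.3 points). It shares that peak with TP53I3, so both genes carry 1 measurement. PHF5A, another SF3b subunit, moved by −38.9 points (18.5 in both untreated replicates, 6.67 and 10.96 at 3 days) and SF3B3 by −30.6 points. With 1 replicate alone their smaller shifts were −15.3 in PHF5A and −10.4 in SF3B3. SF3B4 lost its weak peak (9.53). Of the 6 SF3B genes, a subset chosen after values were seen, 3 dropped, 2 held and 1 lost its peak.

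The U4/U6.U5 tri-snRNP, the particle that brings the catalytic RNAs to the spliceosome, had more gains than drops. Of 20 genes with an untreated peak 18 kept it, 5 gained and 2 dropped, with a median shift of 4.74 points that was positive under 8 of 10 alternatives. This median lay above that of all genes under 9 of 10. LSM7 had 9.38 in both untreated replicates and 17.9 and 66.4 at 3 days, a shift of 62.7 points with a peak that went from 568 to 866 bp. LSM4 (41.9 points) and LSM8 (39.0), of the same ring on U6 RNA, also gained, as did EFTUD2, the GTPase of the U5 snRNP (41.4), and PRPF3 (24.2). DDX23, a U5 helicase, dropped by 22.7 points from 53.4 to 16.4. Over LSM2 to LSM8, a subset chosen after values were seen, 3 gained, 3 held and 1 lost its peak.

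All 9 SR protein genes with an untreated peak kept it, with a median shift of 9.41 points that was positive under 10 of 10 alternatives. The largest move in the class was a drop of SRSF2, which binds exonic enhancers, with 50.3 in both untreated replicates and 9.72 and 71.3 at 3 days. Its shift was −54.0 points, but −3.78 with replicate 2 alone, on peaks of 969 and 966 bp. SRSF7 gained 20.8 points, from 25.1 to 30.1 (10.4 with replicate 2 alone), and SRSF6 had a 3-day peak alone (8.48). SR protein kinases kept 5 of 7 (71.4%, 29.0% to 96.3%), near the 70.2% of all genes, with no gain or drop, and CLK1 lost a peak of 16.02. The hnRNP genes, which coat nascent RNA, kept 19 of 20, with 1 gain and 3 drops. HNRNPUL2 gained 36.1 points, from 22.2 to 58.5, with a peak of 367 bp that became 1024 bp. HNRNPR dropped by 31.2 points, and HNRNPF lost a peak of 10.5. Among the U1 and Sm core genes SNRPF gained 24.6 points and SNRPC, a U1 protein that contacts the 5′ splice site, dropped by 38.8, from 43.7 in both untreated replicates to 11.4 and 12.5.

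**Figure D5:**
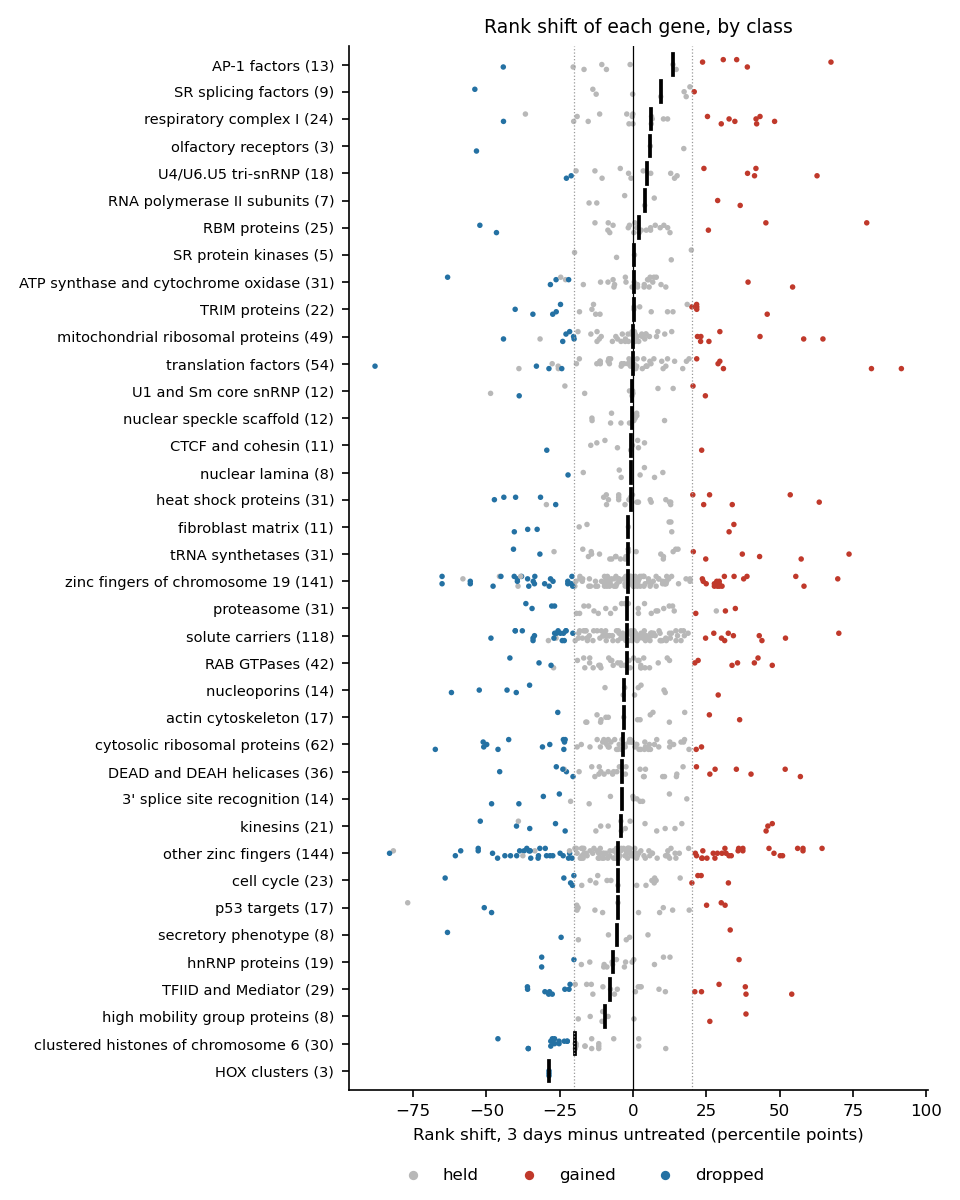
Rank shift in percentile points of each gene with a peak in both lists, by gene class; black bars are class medians and dotted lines mark the limits of 20 points. The histone class lies mostly left of 0, and AP-1 factors and SR proteins have medians to the right.

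Replication-dependent histone genes of chromosome 6 had the lowest median shift of the classes with over 20 genes in both lists. These genes make the histones of S phase and sit together in large clusters that form a nuclear body of their own. Of 49 with an untreated peak 30 kept one (61.2%, 46.2% to 74.8%). Of the 30, none gained, 14 dropped (against 14.5% of all genes) and 3 moved up at all, with a median shift of −19.7 points. The median was negative under 10 of 10 alternatives, from −34.9 to −10.8 points. Because histone genes lie close together, the 49 genes had 26 different strongest peaks and the 30 had 16, so the counts hold fewer measurements than genes. H2BC11 had 55.7 in both untreated replicates and 15.8 and 43.7 at 3 days (−25.2 points, and −13.6 with replicate 2 alone). H2BC5 had 41.8 and then 13.3 and 22.8, and H2BC7 18.9 and then 6.38 and 5.78, a shift of −46.1 points. H3C6 moved the other way by 11.1 points (26.3 and 22.1), but by −4.82 with replicate 2 alone. H2AC7 and H3C4 shared an untreated peak of 18.9 and had none at 3 days. By family, 8 of 11 H2A genes, 10 of 14 H2B genes, 6 of 9 H3 genes, 3 of 5 H1 genes and 3 of 10 H4 genes kept a peak. Of all 55 genes of the class, with or without a SON peak, 43 had an HMGB2 peak, against 23.3% of all protein-coding genes. Neighbouring genes can share an HMGB2 peak too, so this count can hold fewer peaks than genes.

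AP-1 factors are transcription factors of the immediate response to serum and stress. All 13 with an untreated peak kept it, 5 gained and 1 dropped. FOS had 12.9 in both untreated replicates and 44.0 in both at 3 days, a shift of 67.5 points, with a peak that widened from 805 to 1520 bp. FOSL2 (39.0 points), FOSB (35.3), JUND (30.7) and JUNB (23.7, but 3.498 with replicate 2 alone) gained as well. ATF4, the regulator of the integrated stress response, dropped by 44.3 points, from 28.8 to 8.79. The class median was 13.6 points but was positive under only 6 of 10 alternatives, with a lowest value of −1.12, and it was −1.01 in the 11 genes left without those with a peak of 800 bp or wider. It lay above the median of all genes under 8 of 10 alternatives.

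Matrix and secretory genes, typical products of fibroblasts, lost peaks more often than most classes. Of 20 matrix genes with an untreated peak 11 kept it (55.0%, 31.5% to 76.9%), and of 15 genes of the senescence-associated secretory phenotype 8 did (53.3%, 26.6% to 78.7%). Both intervals include the 70.2% of all genes, and both shares were below that of all genes computed the same way under 5 of 5 alternatives. COL6A3 (22.98), COL1A2 (16.4) and IGFBP7 (16.4), a secreted binder of insulin-like growth factors, had no 3-day peak, nor did IL6 (7.34). FN1, fibronectin, dropped by 40.5 points, from 24.1 in both untreated replicates to 8.20 and 10.7, and COL5A1 by 35.9. HGF, a growth factor made by fibroblasts, ended near the bottom of the ranks, from 25.03 and 26.03 to 5.84 in both replicates (−63.3 points). Going up were THBS2, a matrix glycoprotein (34.4), INHBA, an activin subunit (33.1), and VCAN, a matrix proteoglycan (32.7). With replicate 2 alone INHBA moved by 4.88 and VCAN by 19.5 points. Of 34 secretory genes 19 had no SON peak in either list.

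The fibroblast identity of the cells was read only as presence of SON peaks, which is not expression. Of 9 fibroblast markers 8 had an untreated peak, all but VIM, and 4 (DCN, FN1, LUM and PDGFRB) kept it. Of 6 epithelial markers 2 and then 0 had a peak, of 4 endothelial markers 2 and then 1, and of 5 immune markers 2 in each list, so peaks alone did not single out the cell type.

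Cell cycle and p53 genes had shares of gains and drops near those of all genes. Of 30 cell cycle genes 23 kept a peak, 4 gained (17.4%) and 5 dropped (21.7%). BUB1B, a kinase of the spindle checkpoint, had 28.4 in both untreated replicates and 6.61 in both at 3 days (−64.1 points). Of the replicative helicase genes MCM2 to MCM7, chosen after values were seen, all 6 kept a peak, 4 dropped and 2 held, with MCM7 at −23.6 and MCM2 at 16.05 points. EZH2, the methyltransferase of Polycomb complex 2, gained 32.5 points (6.14 in both untreated replicates, 9.29 and 30.03 at 3 days), and CDK1 gained 22.1 (7.81 with replicate 2 alone). LMNB1, the lamin B1 gene whose loss marks senescent cells, had an untreated peak of 14.5 and none at 3 days. Of 21 p53 target genes 17 kept a peak, 3 gained (17.6%) and 2 dropped (11.8%). POLH, the translesion polymerase eta, gained 31.4 points (22.9 in both untreated replicates, 42.6 and 152 at 3 days). PLK3 dropped by 50.8 points with a peak that narrowed from 888 to 563 bp, and the apoptosis gene BBC3 lost its peak of 8.05.

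Chromatin architecture genes kept shares whose intervals include the 70.2% of all genes. Of 13 genes of CTCF and cohesin 11 kept a peak (54.6% to 98.1%), and RAD21, the cleavable ring subunit, stayed high at 75.5 in both untreated replicates and 97.4 and 397 at 3 days. WAPL, which releases cohesin, gained 23.4 points, CDCA5, which protects it, dropped by 29.4, and STAG2 lost its peak of 9.84. Of 10 high mobility group genes 8 kept a peak (44.4% to 97.5%). HMGN1, a nucleosome binder, gained 38.5 points, while HMGB3 (11.5) and HMGA1 (9.29) lost theirs. Nucleoporin genes kept 14 of 20 (70.0%), with 1 gain and 5 drops. NUP62, of the central channel, gained 29.0 points on a peak of 886 bp, and NUP42 dropped by 62.0 points, from 28.4 in both untreated replicates to 6.88 and 11.4 (−38.6 with replicate 2 alone). NUP54 lost a peak of 12.9.

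Genes of the translation machinery kept their peaks, and among ribosomal proteins drops outnumbered gains. Of 76 cytosolic ribosomal protein genes 62 kept a peak (81.6%, 71.0% to 89.5%), 2 gained (3.23%) and 12 dropped (19.4%). Their median shift was −3.37 points and was negative under 10 of 10 alternatives. The median untreated percentile of the 62 was 67.8, in quintile 4 of untreated rank counted from the weakest. In that quintile 4.18% of all genes gained and 24.5% dropped, and the part of starting rank in the class counts was not tested. RPS19 had 33.9 in both untreated replicates and 7.08 and 7.30 at 3 days, a shift of −67.4 points. RPS6, whose promoter is printed above, had 25.6 and then 7.45 and 12.6 (−51.1 points, and −27.9 with replicate 2 alone). RPS4X gained 23.3 points, and RPL6 lost a peak of 19.8. Of 64 translation factor genes 54 kept a peak, 6 gained and 4 dropped, and these include EEF1A1 and EIF2B4, which moved furthest in either direction. Aminoacyl-tRNA synthetases kept 31 of 35, and SARS1, for serine, gained 73.6 points on a peak that widened from 321 to 952 bp.

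Among complex I genes, which feed electrons into the respiratory chain, gains outnumbered drops. Of 32 genes 24 kept a peak, 8 gained and 1 dropped, beside backgrounds of 15.2% and 14.5%. The median shift was 6.24 points, positive under 9 of 10 alternatives with a lowest value of −1.50. It lay above the median of all genes under 10 of 10. NDUFA12 had 7.53 and 6.65 in the untreated replicates and 11.5 and 48.7 at 3 days (48.3 points), and NDUFS6 14.6 in both and then 19.4 and 70.5 (43.3 points). NDUFB5 dropped by 44.2 points at a peak it shares with MRPL47, a mitochondrial ribosomal protein gene. In ATP synthase and cytochrome oxidase genes 31 of 36 kept a peak, 2 gained and 4 dropped. COX6C gained 54.4 points, and ATP5PF dropped by 63.3 (−14.0 with replicate 2 alone).

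Heat shock genes kept 31 of 34, with 6 gains and 5 drops. DNAJB2, a cochaperone, had 12.8 in both untreated replicates and 31.8 and 57.1 at 3 days (63.5 points), and DNAJB4 moved from 27.3 to 8.16 (−47.3 points, and −27.9 with replicate 2 alone). DEAD and DEAH helicases kept 36 of 46, with 7 gains and 5 drops. DHX9 had 14.5 in both untreated replicates and 34.9 and 67.1 at 3 days (57.0 points), with peaks of 893 and 986 bp. DHX16, a spliceosomal helicase, dropped by 45.5 points (−20.7 with replicate 2 alone), and DDX31 lost a peak of 18.4.

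Clustered developmental genes lost most of their peaks. Of 26 protocadherin genes with an untreated peak, PCDH9 alone kept it (17.5 and 10.0). The 22 gamma protocadherins share 1 untreated peak of 18.9, so the 26 genes had 5 different strongest peaks. Of 9 HOX genes, which set position along the body axis, 3 kept a peak and all 3 dropped by 28.7 points at 1 shared peak of the HOXA cluster (23.6 at HOXA5 in both untreated replicates, 9.35 in both at 3 days). Solute carriers, a class of membrane transporters with few shared peaks, kept 118 of 194 (60.8%, 53.6% to 67.7%). Zinc finger genes kept shares near all genes, 141 of 202 on chromosome 19 and 144 of 203 elsewhere.

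Promoter letters were searched on both strands for 12 motifs in the 15812 protein-coding genes with a promoter in the RefSeq table (79.2%). The NRF1 letters GCGCATGCG were in 2.76% of all promoters. Of 339 genes with these letters and their strongest untreated peak at the gene start, 325 kept it (95.9%, 93.2% to 97.7%), against 4109 of 5496 for all genes with a promoter and such a peak (74.8%, 73.6% to 75.9%). In the weakest quintile of untreated strength the shares were 74.2% and 31.3%, in the next 88.2% and 53.7%, and in the middle quintile 95.3% and 79.0%. The 325 genes had a median shift of 9.52 points, against 0.05 for all, with 260 up and 65 down. Of them 87 gained (26.8%) and 2 dropped (0.615%), against 16.04% and 13.3% of the 4109 genes with any promoter. Without genes having a peak of 800 bp or wider the median of the remaining 212 was 8.38, against −1.63. It was 9.44 without replicate 2 and 17.6 without replicate 1, but 2.08 when genes were ranked among all genes of their list and 4.04 when ranked by peak width. Over the alternatives the median of all protein-coding genes ran from −8.67 to 0.26 points.

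Other lists gave different shares at these genes. A 6-day SON peak was present at 64.3% of the 339 genes (59.0% to 69.4%), against 36.7% of all with a start peak. An HMGB2 peak was present at 25.7% (21.1% to 30.7%), against 37.2%, and the share was also low for the BANP letters, at 22.05% (15.2% to 30.3%), whose genes moved the other way. Beside LSM7, DHX9 and SPOP, the genes with the letters included RBM23, a splicing regulator, with 7.92 in both untreated replicates and 26.7 and 112 at 3 days (79.7 points), and GEMIN2, an assembly factor of snRNPs, with 9.04 and then 14.6 and 41.6 (54.6 points). SPOP had 16.1 in both untreated replicates and 55.8 and 123 at 3 days, a shift of 55.9 points on peaks over 1 kb wide. These genes were chosen after their values were seen.

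The BANP letters TCTCGCGAG, in 1.05% of all promoters, went the other way in rank. Of 127 genes with them and a start peak 106 kept it (83.5%, 75.8% to 89.5%), with a median shift of −9.52 points. Of these 6 gained (5.66%) and 29 dropped (27.4%), against 16.04% and 13.3% of the 4109 genes with any promoter and a kept start peak. The median untreated percentile of the 106 was 64.7, in quintile 4 of untreated rank. In that quintile 4.18% of all genes gained and 24.5% dropped, and the part of starting rank in these counts was not tested. Without genes with a peak of 800 bp or wider the median shift was −11.4, and ranked by peak width it was −2.37. IREB2 had 53.6 in both untreated replicates and 10.1 and 26.4 at 3 days (−52.3 points, and −24.6 with replicate 2 alone), and LAMP1, a lysosomal membrane protein, 21.8 and 24.99 and then 6.47 and 13.2 (−50.7 points, and −24.2 with replicate 2 alone). RPS6 and RPS19 belong to the same group. For the other 10 motifs the share kept ran from 68.1% (TATA box) to 77.5% (NF-Y letters), and the median shift from −4.48 to 0.72 points.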

How the data were processed

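Peak lists of SON in untreated IMR90 cells and after 3 days of ICM were used, with the SON list of 6 days and the HMGB2 list of untreated cells for presence of a peak only. Per the submitters' processing notes, bcl2fastq 2.17, Bowtie2, MACS2 and deepTools were used and the build was hg38; their roles are not given in the sources used here. The authors deposited the SON lists in the 20-column layout of the IDR tool on 2 replicates, with −log10 p per replicate and the −log10 of the global IDR. The deposited −log10 p of a line is the lower of the 2 replicate values, and a p-value this small also depends on read depth, which is unknown. The HMGB2 list holds −log10 p for peaks that the authors deposited with a q cutoff in the peak names. The HMGB2 input and the HMGB2 sample named for DSG were not used here.

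Gene positions and promoters came from RefSeq tables of GRCh38.p14. Peaks were shared at 1 bp or more of overlap, and a gene start or end took 1 kb on either side. Named genes were, by rule, the 8 strongest held entries, the 8 largest gains with an IDR of at most 0.05 at 3 days, the 8 largest drops with that IDR in untreated cells, the 6 strongest genes of either list alone, and in each class the largest gain, the largest drop and the strongest loss. One gene that the rule names is not reported here. Other genes named were chosen after their values were seen, as were those with peaks under 800 bp. Members and lists were chosen with earlier results of these data known. With 1 list per group there was no test between conditions. The ranking was tested on simulated data. Alternatives covered stricter lines, lists of equal length, other gene windows, other shift limits and each replicate alone. With each replicate alone, the strongest peak of a gene was picked anew. The work was done in Python 3.11.15 with pandas 2.3.3 and numpy 2.4.6, intervals with scipy 1.17.1 and figures with matplotlib 3.10.9.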

Additional observations from a re-analysis of the deposited data

Results flagged for a closer look

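Lines outside chromosomes 1 to 22 and X, which enter no comparison, made up 130 of 11158 lines of the 3-day list (1.17%, exact 95% interval 0.974% to 1.38%), against 146 of 22362 lines of the untreated list (0.653%). Their share was higher in the list with fewer lines, and no control list without antibody was used here.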

How the results depend on the processing

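Loss of peaks depended on the lines admitted. With an IDR of at most 0.05, 31.4% of untreated peaks met a 3-day peak and 91.0% of 3-day peaks met an untreated one, and with lists cut to equal length the shares were 70.3% and 70.4%, against 45.4% and 91.6%. At an IDR of at most 0.05, 4405 of 8985 genes (49.0%) had an untreated peak alone, against 29.8%. Equal length left 1200 genes with an untreated peak alone and 1236 with a 3-day peak alone, and giving each peak to 1 gene left 294 of the latter, against 3397 and 183; a shorter untreated list leaves fewer peaks to lose. Gains numbered 805 and drops 768 at an IDR of at most 0.05, where fewer genes remained and 3007 held, 1991 and 1961 at a shift of 10 points, 705 and 623 at 30 points, and 569 and 2209 when genes were ranked among all genes of their list, against 1219 and 1159. Using 1 replicate alone, gains ran from 1316 to 1666 and drops from 1366 to 1850, the higher values without replicate 1; the cause was not tested. The shift of NDEL1 ran from −81.1 to 6.41 points. It reversed without replicate 2, where its strongest peak was picked anew, and was −59.6 with replicate 1 at the reported peaks. The other named genes that 1 replicate decides have that value beside them in the report. Chosen after seeing the data, leaving out genes with a peak of 800 bp or wider gave 890 gains and 1084 drops, and ranking by peak width gave 1097 and 1157, of which 224 and 287 were also called by −log10 p. Of 177 values for named genes 73 moved and 1 reversed. For genes with a start peak and the NRF1 letters, the BANP letters or any promoter, there were 45 values. Of these, 17 moved under the listed alternatives and 3 under later ones. Of 433 values for gene classes, all genes included, 68 moved under the listed alternatives and 7 under those chosen after seeing the data. No paired analysis was possible because each group has 1 list and no test was made.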

Other observations

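Chromosomes differed in how many peaks and genes they kept. On chromosome 19, the most gene-dense chromosome, 62.5% of untreated peaks met a 3-day peak (exact 95% interval 59.5% to 65.5%), and 78.9% of genes with an untreated peak kept one. On chromosome X 59.9% of such genes kept one. The 164 genes that did had a median rank shift of 4.46 points, with 45 gains and 16 drops, beside 15.2% and 14.5% of all genes. The median −log10 p of untreated peaks was 8.79 on chromosome X and 9.90 over all chromosomes, and genes of low untreated rank gained more often. The part of strength in these counts was not tested. Over quintiles of gene density, the share of genes that kept a peak ran from 67.9% in the sparsest to 74.9% in the densest. Median untreated strength rose over the same quintiles from 13.4 to 17.8, and among genes of middle strength the share showed no such rise (80.4%, 77.3%, 78.2%, 77.3% and 79.8%).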
